A study of Mus musculus with 56 samples.

Results

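The alpha-macroglobulin genes analysed here were murinoglobulin 1 (Mug1), murinoglobulin 2 (Mug2), Pzp and A2m, which are 4 of the 23813 genes of a liver RNA-seq table. They were selected on the measured RPKM of these libraries, in which Mug2 was already known to have the largest positive difference between mutant and WT mice, so their values are given as a description with no test. Each gene was found by its symbol and had 1 transcript in the table, NM_008645 for Mug1, NM_008646 for Mug2, NM_007376 for Pzp and NM_175628 for A2m. A filter of at least 0.1 RPKM (reads per kilobase of transcript, scaled to the aligned reads of the library) in at least 4 of the libraries compared was passed by Pzp, Mug1 and Mug2, but not by A2m. All 12 libraries were made from polyA-enriched RNA of whole liver from male mice that received propylthiouracil (PTU), an inhibitor of thyroid hormone synthesis. The 4 hypothyroid WT mice received PTU alone, and 4 hyperthyroid WT mice received PTU and triiodothyronine (T3). The other 4 mice were hypothyroid L-NCOR1ΔID mice (L-NCORdeltaID in the labels) on PTU alone, which express in the liver an NCOR1 without its thyroid hormone receptor (TR) interaction domains. NCOR1 is a corepressor that TR recruits in the absence of T3. The comparisons ask which genes respond to T3 and which differ in mice with the mutated NCOR1. The study also reports reduced occupancy of the histone deacetylase HDAC3 at a number of sites without TR in the mutant. It proposes that the deleted domains may matter for recruitment to regulators other than TR. L-NCOR1ΔID mice were kept on a mixed C57BL/6;129S background. For WT mice the methods of the study name only C57BL/6J;NIH Black Swiss, as littermates of its TR-PV line, and the labels do not say which WT mice gave the RNA libraries. Genetic background and the NCOR1 mutation cannot be told apart in the mutant comparison, also for Mug2. Over all animals of the study, mean age was also lower in L-NCOR1ΔID mice than in WT mice on PTU alone. Which of these animals gave the RNA is not stated, and the part of age was not tested. The same 4 hypothyroid WT libraries were the controls of both comparisons.

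Alpha-macroglobulins are large secreted plasma proteins that trap proteases. A protease cuts the bait region of the inhibitor, which opens an internal thioester bond that links the protease covalently to the inhibitor, and the complex is then cleared through the hepatocyte receptor LRP1. In mice the main tetrameric alpha-macroglobulin of plasma is encoded by Pzp, murinoglobulins are the monomeric form, and A2m encodes the counterpart of the acute phase alpha-2-macroglobulin of rats. The liver is the main source of the plasma proteins. The symbol A2m has also been used as another name of Pzp, so the 2 were kept apart by their transcript accession.

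The depth, estimated from the steps between low RPKM values, was 21200000 to 42800000 reads per library, lowest in the T3 group at 21200000 to 26100000 reads and highest in the L-NCOR1ΔID group at 38200000 to 42800000 reads. Thrsp, a lipogenic gene induced by T3, was higher in hyperthyroid mice (log2 difference 2.29, limma adjusted p = 8.1e-04). Dio1, which encodes a deiodinase and is a classic T3 target, was 459 to 641 RPKM in hyperthyroid mice and 0.719, 6.64, 57.7 and 8.98 RPKM in hypothyroid WT mice, so that WT PTU replicate 3 stood apart. Total Ncor1 RNA did not pass the test in L-NCOR1ΔID mice (log2 difference -0.18, adjusted p = 0.20), and a value per gene cannot show the loss of single exons. Summed over the 5 hepatocyte markers, expression was 37200 to 48700 RPKM in hypothyroid WT, 18700 to 27000 RPKM in hyperthyroid WT and 31300 to 34400 RPKM in L-NCOR1ΔID mice, most of it from Alb. Alb and Ttr were called lower with T3, whereas Apoa1 (4224 and 4661 RPKM without and with T3), Apob (547 and 570 RPKM) and Cps1 (1161 and 903 RPKM) did not pass. The call of Alb was lost in 9 of 11 alternatives, all except a pseudocount of 1 and without T3 replicate 4, with an adjusted p of 0.015 to 0.029. All 6 Kupffer cell markers were called higher with T3, with sums of 36.9 to 52.6 RPKM in hypothyroid WT, 123 to 205 RPKM in hyperthyroid WT and 43.4 to 119 RPKM in L-NCOR1ΔID mice. The 6 pancreatic acinar markers summed to 9.58 to 15.3 RPKM without T3 and to 73.5 to 1040 RPKM with T3 in WT mice, and to 5.08 to 9.53 RPKM in L-NCOR1ΔID mice. Of these only Cela1 was called, at 68.4 to 243 RPKM with T3, while Cpa1, Cpb1, Pnlip and Ctrb1 were 89.5 to 142 RPKM in T3 replicate 3, 1.64 to 2.40 RPKM in T3 replicate 2 and at most 0.186 RPKM in the other T3 libraries. Alas2, an erythroid marker, was called lower in both comparisons.

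Pzp was the most abundant of these transcripts in every group. In hypothyroid WT mice it was measured at 1296, 1073, 999.8 and 1216 RPKM and ranked 42 of 23813 genes by its mean. Mug1 was 608, 658, 672 and 636 RPKM in the same libraries and ranked 80. Mug2 was 6.82, 12.2, 11.7 and 10.6 RPKM, which placed it at rank 3914. RPKM is a level per transcript length, by which these genes were set side by side. Reads that match both Mug1 and Mug2 were left out, and how far this lowers their values against Pzp was not tested. The libraries of Pzp, Mug1 and Mug2 did not overlap between genes in any of the 3 groups. A2m was between 0 and 0.077 RPKM, and it was listed at 0 in 2 of 12 libraries. With a transcript of 4670 bases this corresponded to 0 to 10 reads per library, and 8 of 12 libraries were at or under 3 reads, which equal 0.015 to 0.0303 RPKM at these depths. No fold change is given for A2m. In contrast, Pzp was covered by 75983 to 217993, Mug1 by 33780 to 114248 and Mug2 by 761 to 45714 estimated reads per library, a number that covers counting error only.

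**Figure D1:**
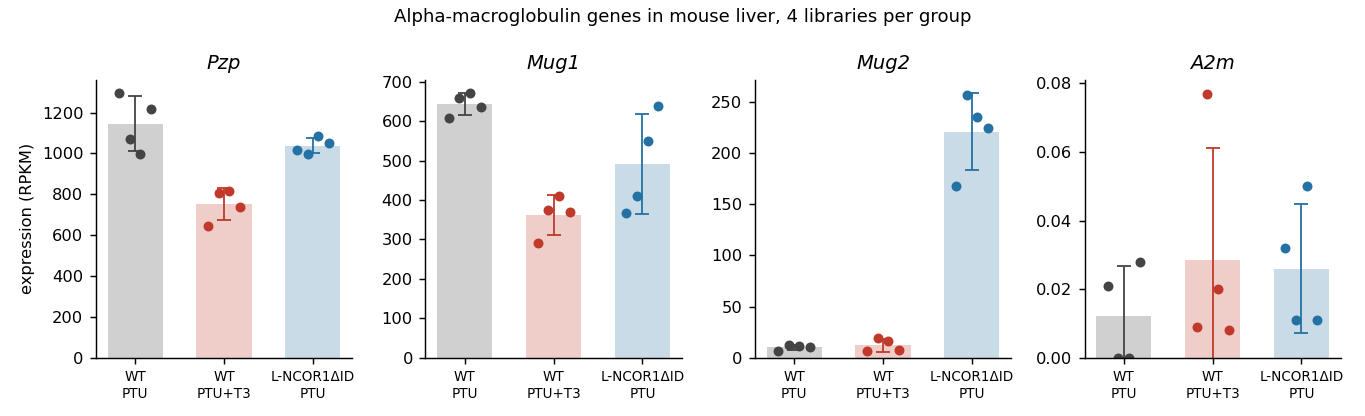
Expression in RPKM of Pzp, Mug1, Mug2 and A2m on linear axes that differ between panels, with 1 point per library, the group mean as a bar and the SD of 4 libraries as error bars. Mug2 lies at 168 to 256 RPKM in the 4 L-NCOR1ΔID libraries and at 6.70 to 19.1 RPKM in the 8 WT libraries, whereas Pzp and Mug1 are lowest in the hyperthyroid group.

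Mug1 and Mug2 are close paralogs with long stretches in common. In the GENCODE M1 annotation of mm9 their coding sequences aligned over 4350 bases with 95.1% identity, while Pzp was 64.8% identical to Mug1 and 64.7% to Mug2, and A2m was 69.8% and 69.3% identical to them. Of all windows of 50 bases in the Mug2 transcript, 20.6% were also found in Mug1, and none was found in Pzp or A2m. A read that falls in such a window cannot be assigned to either murinoglobulin by its sequence. The stretch of 90 coding bases without a gap that differed most between the paralogs shows what separates a Mug1 from a Mug2 read, with the 11 differing bases in capitals. It spans exons 7 and 8 of 36 in Mug1 (chr6:121800345-121801468, plus strand, intron left out) and exons 7 and 8 of 35 in Mug2 (chr6:121973930-121975027, plus strand).
Mug1: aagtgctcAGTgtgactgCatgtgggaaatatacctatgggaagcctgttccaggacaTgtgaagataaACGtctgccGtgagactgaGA
Mug2: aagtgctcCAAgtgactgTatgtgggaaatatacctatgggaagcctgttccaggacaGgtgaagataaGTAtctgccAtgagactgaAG
The longest run of identical coding bases had 182 bases, and it is shown because reads from it are the same for both genes. It lies in exons 31 to 33 of Mug1 (chr6:121834635-121836580) and exons 30 to 32 of Mug2 (chr6:122031620-122033467).
Mug1 and Mug2: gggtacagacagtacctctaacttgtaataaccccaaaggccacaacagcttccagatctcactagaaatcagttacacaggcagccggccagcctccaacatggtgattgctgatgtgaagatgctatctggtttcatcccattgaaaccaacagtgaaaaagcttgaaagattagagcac
The RPKM values rest on uniquely aligned reads, so that reads that match both genes equally well were left out. How far this lowers the RPKM of Mug1 and Mug2, which is per whole transcript length, was not tested.

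With T3, Pzp and Mug1 were lower and Mug2 was at a similarly low level as without T3. Mug1 was 290, 374, 411 and 369 RPKM in hyperthyroid mice, a mean of 361 ± 51.0 RPKM (SD, n = 4) compared to 643 ± 27.8 RPKM in hypothyroid WT mice. All hyperthyroid libraries were below all hypothyroid ones, and the log2 difference was -0.84 ± 0.11 (SE), a level 1.79 times lower. Pzp was 647, 807, 817 and 738 RPKM in hyperthyroid mice, a mean of 752 ± 78.2 RPKM against 1146 ± 134 RPKM. These groups did not overlap either, and the log2 difference was -0.61 ± 0.13, or 1.52 times lower. Mug2 was 6.70, 19.1, 16.4 and 7.16 RPKM with T3, with a mean of 12.3 ± 6.33 RPKM compared to 10.3 ± 2.45 RPKM. Its groups overlapped, 2 hyperthyroid libraries lying above all hypothyroid ones and 1 below them, and the log2 difference was 0.13 ± 0.36. Mug2 had no stable direction, since the difference was -0.13 without T3 replicate 2, -0.05 without WT PTU replicate 1 and -0.08 when libraries were scaled by the median of gene ratios.

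These values are to be read against the whole table, in which the median log2 difference between hyperthyroid and hypothyroid mice was 0.23 over 13941 genes tested. Scaled by the median of gene ratios, which brings the median to 0.03, the log2 differences were -1.06 for Mug1 and -0.82 for Pzp. Hyperthyroid and hypothyroid groups of 4 did not overlap for 46.6% of all genes tested. With the thresholds of the comparison (limma adjusted p under 0.01 and an absolute log2 difference over 1), 8.28% of genes were called higher and 3.47% lower, and 70.5% of the calls were higher compared to 54.2% with the other scaling. The hepatocyte markers Alb and Ttr were also lower, although Apoa1 and Apob were not, and the Kupffer cell markers and Cela1 were higher in these hyperthyroid libraries, and their part in the differences of Pzp and Mug1 was not tested. Without T3 replicate 3, the library of high pancreatic markers, the log2 differences were -0.91 for Mug1 and -0.65 for Pzp. In whole liver, fewer cells of a type and less RNA per cell cannot be told apart.

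In hypothyroid L-NCOR1ΔID mice Mug2 was far above its level in hypothyroid WT mice, whereas the mutant libraries of Pzp and Mug1 overlapped the WT ones. Mug2 was 168, 256, 235 and 224 RPKM in the mutant, a mean of 221 ± 37.8 RPKM against 10.3 ± 2.45 RPKM. The lowest mutant library was above the highest WT library of 12.2 RPKM, and the log2 difference was 4.42 ± 0.20, a 21.4-fold higher level. By this difference, which the selection of the genes used, Mug2 ranked 1 of 13790 genes tested, and by its mean it moved from rank 3914 to rank 238 in the table. It was covered by 963 to 1831 estimated reads in hypothyroid WT and by 31024 to 45714 in mutant libraries. Leaving out any 1 of the 8 libraries gave log2 differences between 4.23 and 4.55, with 4.49 without WT PTU replicate 3, the library of high Dio1. Mug1 was 366, 411, 551 and 639 RPKM in the mutant, a mean of 492 ± 126 RPKM with a larger spread than in WT mice. Of these libraries 3 were below all WT libraries and 1 was within their range, and the log2 difference was -0.42 ± 0.17. Pzp was 1017, 998.6, 1085 and 1054 RPKM, a mean of 1039 ± 38.3 RPKM, which lay within the range of the WT libraries apart from 1 library just below it, and the log2 difference was -0.14 ± 0.12. The groups of 4 did not overlap for 13.1% of all genes tested in this comparison. At an adjusted p under 0.01, 0.725% of genes were called higher and 0.544% lower in the mutant.

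Because the paralogs are so alike in sequence, Mug1 and Mug2 were also summed. The mean of the sum was 654 ± 30.1 RPKM (SD, n = 4) for hypothyroid WT, 374 ± 55.5 RPKM for hyperthyroid WT and 712 ± 144 RPKM for L-NCOR1ΔID livers. Mutant libraries ranged from 534 to 863 RPKM and overlapped the WT range of 615 to 683 RPKM, so that summed murinoglobulin RNA did not separate mutant and WT mice. Mug2 made up 1.11% to 1.82% of the sum in hypothyroid WT libraries, with a mean of 1.57 ± 0.317%. In the mutant it made up 26.0% to 38.4%, with a mean of 31.4 ± 5.18%. With T3 the share was 1.90% to 4.84% and its mean 3.21 ± 1.38%, which did not overlap the hypothyroid WT range although the level of Mug2 itself did. Pzp made up 63.5 ± 3.75% of the RPKM of Pzp, Mug1 and Mug2 together in hypothyroid WT, 66.9 ± 1.31% in hyperthyroid WT and 59.7 ± 4.47% in mutant mice.

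**Figure D2:**
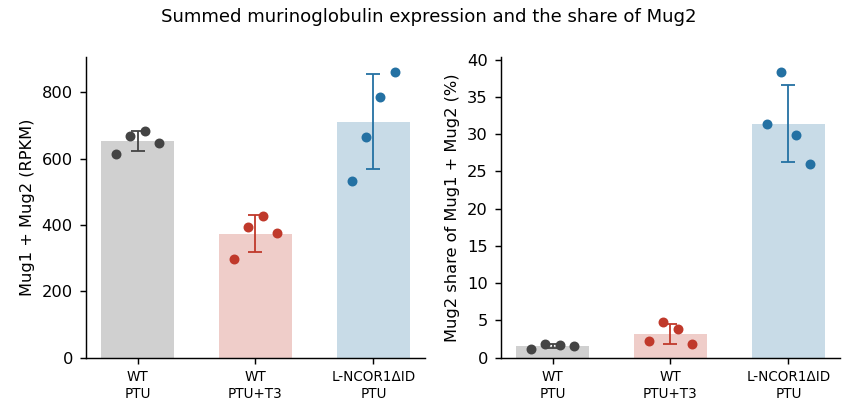
Sum of Mug1 and Mug2 in RPKM (left) and the share of Mug2 in that sum in percent (right), with 1 point per library, the mean as a bar and the SD of 4 libraries as error bars. The sum overlaps between hypothyroid WT and L-NCOR1ΔID mice, while the share is 1.11% to 1.82% in the former and 26.0% to 38.4% in the latter.

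Related transcripts without a protein product lie next to Mug2. RefSeq places the transcribed pseudogene Gm10319 and then the murinoglobulin pseudogene Mug-ps1 directly after Mug2 on chromosome 6. Gm10319 (NR_003624) was 4.31, 6.23, 7.25 and 4.63 RPKM in hypothyroid WT and 16.4, 13.6, 22.0 and 27.4 RPKM in L-NCOR1ΔID mice. The groups did not overlap, and Gm10319 was called higher in the mutant (log2 difference 1.79 ± 0.24, limma adjusted p = 0.0046). This call was lost without WT PTU replicate 1, 2 or 4 (adjusted p = 0.016, 0.016 and 0.019), without L-NCOR1ΔID replicate 1 or 3 (0.012 and 0.018) and with the replicate number as a block (0.021). Mug-ps1 (NR_027619), named after its values were seen, was 6.62 to 8.41 RPKM in hypothyroid WT and 11.6, 13.0, 19.9 and 21.6 RPKM in the mutant. It did not overlap between groups either but did not pass the test (log2 difference 1.07 ± 0.20, adjusted p = 0.021). With T3, Gm10319 had a log2 difference of 0.30 ± 0.18 (adjusted p = 0.19) and Mug-ps1 of 0.09 ± 0.10 (adjusted p = 0.46), and neither passed. Among the mutant libraries Mug1, Gm10319 and Mug-ps1 were each highest in replicates 3 and 4, whereas Mug2 was highest in replicates 2 and 3. Over all 12 libraries the log2 profiles of Gm10319 and Mug-ps1 had an r of 0.941 and 0.889 with that of Mug2, and of 0.017 and 0.119 with that of Mug1. These coefficients take in the difference between mutant and WT mice on which Mug2 was selected, so they do not measure likeness within a group. The exons of Gm10319 aligned to the Mug2 transcript over 734 bases with 97.1% identity, and 17.1% of their windows of 50 bases were also in Mug2 and 10.9% in Mug1. The part of shared sequence in the values of Gm10319 and Mug-ps1 was not tested.

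Other genes followed the same pattern over the 12 libraries as each of these genes. By Pearson correlation of log2(RPKM + 0.1) among 10663 genes with a mean of at least 1 RPKM, the profile most like that of Mug1 was that of Adh4, an alcohol dehydrogenase (r = 0.965), before Fbxo21 (0.961) and C8a, a chain of complement component 8 (0.941). Adh4 was 159 ± 15.7 RPKM in hypothyroid WT, 40.5 ± 5.83 RPKM in hyperthyroid WT and 78.7 ± 39.5 RPKM in mutant mice. Mug2 was most like Pgrmc2 (r = 0.962) and the cytochrome P450 Cyp3a25 (0.950). Cyp3a25 was 164 ± 17.5 RPKM in hypothyroid WT, 139 ± 6.75 RPKM in hyperthyroid WT and 400 ± 51.7 RPKM in mutant mice. Pzp was most like Emc9 (r = 0.965), Gm4952 (0.961) and Creg1 (0.960). Creg1 was 254 ± 28.2 RPKM in hypothyroid WT, 138 ± 19.0 RPKM in hyperthyroid WT and 248 ± 23.3 RPKM in mutant mice. Between the genes themselves, r was 0.812 for Mug1 and Pzp, 0.031 for Mug1 and Mug2 and 0.271 for Mug2 and Pzp. These coefficients describe 12 libraries in 3 groups that share the treatment and the depth of each library. Those of Mug2 take in the difference between mutant and WT mice on which it was selected.

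Among the relatives that carry or derive from a thioester domain, A2ml1 was lower with T3 and C4a was lower in the mutant. A2ml1 encodes another alpha-macroglobulin and was 5.27, 3.13, 2.52 and 7.91 RPKM in hypothyroid WT and 0.809, 0.596, 0.783 and 0.991 RPKM in hyperthyroid WT mice. It fell by 2.31 ± 0.33 on the log2 scale (limma adjusted p = 5.1e-04), and the call held in all 11 alternatives, which were a pseudocount of 1, the replicate block, the other scaling and each of 8 libraries left out. In the mutant A2ml1 was 2.96 to 5.43 RPKM and did not pass (log2 difference -0.18 ± 0.34, adjusted p = 0.81). Of 7 listed relatives 5 were tested, of which 1 was called in each comparison, both times lower (3.47% of all genes with T3 and 0.544% in the mutant). The median log2 difference of these 5 was -0.10 with T3, against 0.23 for all genes, and -0.18 in the mutant, against 0.03. C3, the central complement component, was 1467 to 1762 RPKM in hypothyroid WT mice and had log2 differences of -0.26 ± 0.20 with T3 and -0.02 ± 0.17 in the mutant, neither of which passed. Hc, which encodes complement C5, had differences of -0.10 ± 0.22 and -0.69 ± 0.28, and neither passed. C4a, a complement C4 copy, was 17.8 to 42.4 RPKM in hypothyroid WT and 7.64 to 9.02 RPKM in mutant mice and fell by 1.70 ± 0.25 on the log2 scale (adjusted p = 0.0072). That call was lost in 8 of 11 alternatives, namely under the block (adjusted p = 0.021) and without any 1 library except WT PTU replicate 4 (0.013 to 0.025). C4a has a near-identical copy, C4b, so that the values of both are uncertain. C4b was 118 ± 10.6 RPKM in hypothyroid WT, 230.5 ± 45.4 RPKM in hyperthyroid WT and 156 ± 8.21 RPKM in mutant mice, with log2 differences of 0.95 ± 0.14 with T3 (adjusted p = 5.5e-04, under the size threshold) and 0.41 ± 0.08 in the mutant (adjusted p = 0.030), and was called in neither.

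**Figure D3:**
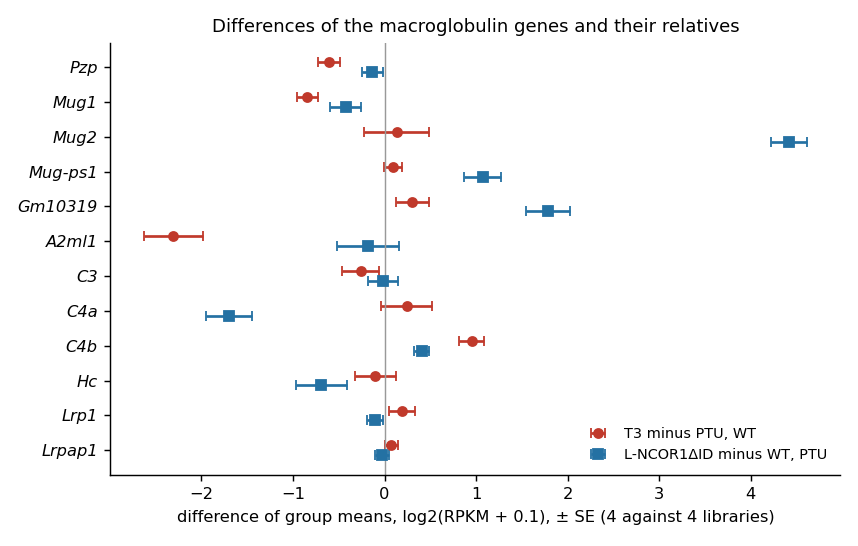
Log2 differences of group means with their SE (4 against 4 libraries) for T3 against PTU in WT mice (circles) and for L-NCOR1ΔID against WT mice on PTU (squares). Mug2 stands at 4.42 in the mutant, and the largest negative difference of those drawn is that of A2ml1 with T3, at -2.31.

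The uptake receptor of protease complexes was not detectably different. Lrp1 was 61.5 to 73.3 RPKM in hypothyroid WT, 59.6 to 99.3 RPKM in hyperthyroid WT and 54.9 to 66.8 RPKM in mutant mice, with log2 differences of 0.19 ± 0.14 (limma adjusted p = 0.28) and -0.11 ± 0.09 (0.53). Lrpap1, which encodes the chaperone of LRP1, had differences of 0.07 ± 0.07 and -0.03 ± 0.08 and did not pass. Of 8 tested members of the LDL receptor family list, 1 rose and 2 fell with T3 (8.28% and 3.47% of all genes) while 0 passed limma's test in the mutant, where 3 had an unadjusted p under 0.05. Lrp5, a Wnt coreceptor, rose from 8.71 ± 0.735 to 25.4 ± 2.59 RPKM (log2 difference 1.53 ± 0.09, adjusted p = 9.1e-06). Vldlr, the very low density lipoprotein receptor, fell from 1.24 ± 0.641 to 0.171 ± 0.142 RPKM and Lrp4 from 2.95 to 1.33 RPKM. The calls of Vldlr and Lrp4 were lost with a pseudocount of 1, at log2 differences of -0.90 and -0.77, and that of Vldlr also under the block (adjusted p = 0.014). The median log2 difference of the list was 0.23 with T3 and -0.04 in the mutant.

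Of 24 other plasma protease inhibitors tested, 1 was called with T3 and 1 in the mutant, both of them higher, where 8.28% and 0.725% of all genes were called higher. With T3, 11 of the 24 had an adjusted p under 0.01 at any size of difference, and 14 had an unadjusted p under 0.05, as did 8 in the mutant. The median log2 difference of the list was 0.22 with T3 and -0.004 in the mutant. Spp2, a secreted protein of the cystatin superfamily, rose from 55.3 ± 3.54 to 224 ± 12.7 RPKM with T3 (log2 difference 2.02 ± 0.07, limma adjusted p = 1.2e-06). Serpina1d, an alpha-1-antitrypsin copy, rose from 523 ± 123 to 1197 ± 175 RPKM in the mutant (log2 difference 1.22 ± 0.19, adjusted p = 0.0088). That call was lost in 10 of 11 alternatives, all except a pseudocount of 1, with an adjusted p of 0.012 to 0.039, among them each of the 8 libraries left out. Serpina1 copies are near identical, so that the value of Serpina1d is uncertain. Of 17 tested plasma proteases 0 were called by limma in either comparison, where 12 had an unadjusted p under 0.05 with T3 and 4 in the mutant, and their median log2 differences were -0.05 with T3 and -0.15 in the mutant.

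Acute phase genes and genes of interleukin-6 signalling were listed because alpha-2-macroglobulin is an acute phase protein in rats. Of 27 tested, 7 were called with T3, all of them higher (8.28% of all genes were), and 1 rose and 1 fell in the mutant (0.725% and 0.544%). With T3 the median log2 difference was 0.73 against 0.23 for all genes, and in the mutant it was 0.27 against 0.03. An unadjusted limma p under 0.05 was found for 18 of the 27 with T3 and for 13 in the mutant. Among the 7 called genes, the 4 with the largest differences were Saa2, Saa1, Saa3 and Cebpb. Saa2, a serum amyloid A gene, was 3.45 to 7.02 RPKM in hypothyroid WT and 539, 1505, 229 and 69.9 RPKM in hyperthyroid WT mice (log2 difference 6.18 ± 0.78, limma adjusted p = 2.9e-04), and Saa1 had a difference of 5.27 ± 0.60. In the mutant Saa2 and Saa1 were also higher, with groups that did not overlap, but did not pass. Their log2 differences there were 2.81 and 2.00 (adjusted p = 0.023 and 0.040). Saa3 was called (2.39 ± 0.56, adjusted p = 0.0067) but the call was lost in 9 of 11 alternatives, all except those without T3 replicate 2 or 4, with an adjusted p of 0.011 to 0.018. The transcription factor gene Cebpb rose with T3 (2.32 ± 0.29) and in the mutant (1.32 ± 0.15, adjusted p = 0.0026), where the call was lost without WT PTU replicate 4 or L-NCOR1ΔID replicate 3 (0.012 each) and under the block (0.019). Saa4 fell in the mutant from 161 to 76.9 RPKM (-1.06 ± 0.15, adjusted p = 0.0069). The call of Saa4 was lost without WT PTU replicate 1, 2 or 3 or L-NCOR1ΔID replicate 1, 2 or 3 (0.012 to 0.026) and under the block (0.050). Stat3, which carries the interleukin-6 signal, did not pass with T3 (0.71 ± 0.26, adjusted p = 0.044) and had a difference of 0.00 ± 0.09 in the mutant. In these libraries A2m stayed at 0.008 to 0.077 RPKM with T3. Of cytokines and growth factors that alpha-macroglobulins bind, 2 of 10 tested rose with T3 (8.28% of all genes), while 0 of 9 were called by limma in the mutant, where 3 had an unadjusted p under 0.05. Il1b rose from 0.762 to 2.52 RPKM (log2 difference 1.56 ± 0.33, adjusted p = 0.0044), a call that was lost in 7 of 11 alternatives, among them those without WT PTU replicate 2 or 4 or T3 replicate 1 or 2 (adjusted p = 0.010 to 0.012), and Fgf2 from 0.0210 to 0.208 RPKM (1.28 ± 0.31, adjusted p = 0.0086), which was lost or untested in all 11. Fgf2 was 0 to 0.046 RPKM in hypothyroid WT and 0.111 to 0.403 RPKM in hyperthyroid WT mice, so that it passed the filter only through the T3 group. The count of 2 thus includes a gene admitted by the group in which it was high. Kupffer cell markers rose in the same hyperthyroid libraries, and their part in the acute phase and cytokine values was not tested.

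The genes lie on chromosome 6 of mm9. In GENCODE M1, A2m spans chr6:121586191-121629255, Mug1 chr6:121788559-121839075 and Mug2 chr6:121956816-122035985, all on the plus strand. Pzp lies at chr6:128433585-128476738 on the minus strand, 6.4 Mb beyond Mug2. The gap between Mug1 and Mug2 is 117.7 kb and that between Mug2 and Gm10319 50.7 kb. Of the genes with a GENCODE M1 position, 30 others had their start within 500 kb of the start of any of the 4 genes. Of these, 19 were tested with T3, where 2 rose and 2 fell (8.28% and 3.47% of all genes). In the mutant 17 were tested, of which 1 rose (0.725%). A2ml1 had no such position and Mug-ps1 was not among the 30, so these counts leave both out. The gene that rose in the mutant was Gm10319, 130 kb after the Mug2 start, while Mug1, 168257 bp before it, had a log2 difference of -0.42 ± 0.17 with overlapping groups and is given with no test. Slc6a12, a betaine transporter gene 293 kb from A2m, rose with T3 (log2 difference 1.40 ± 0.13), and Clec2h, a C-type lectin gene 136 kb from Pzp, fell by 3.80 ± 0.29. BC035044, 364 kb from Pzp, rose by 1.20 ± 0.17 from 0.0660 RPKM, and this call was lost with a pseudocount of 1 and untested without any 1 of the T3 libraries. It was 0.050 to 0.086 RPKM in hypothyroid WT and 0.243 to 0.337 RPKM in hyperthyroid WT mice. Of the 2 neighbours that rose with T3, it thus passed the filter only through the group in which it was high. Pex26, a peroxisome biogenesis gene 453 kb from A2m, fell by 1.07 ± 0.18 and lost its call with a pseudocount of 1 (-0.97), without WT PTU replicate 2 (-0.97), without T3 replicate 2 (-0.92) and under the block (adjusted p = 0.010). The neighbours' median log2 difference was 0.36 with T3 and 0.01 in the mutant, against 0.23 and 0.03 for all genes.

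The study's list of 37200 acetylated histone H3 regions, merged over H3K27Ac and H3K9Ac from hypothyroid and hyperthyroid WT mice, gives positions only. Acetylation of these residues marks active promoters and enhancers. The start of Mug1 lay in a region of 16407 bp (chr6:121783408-121799814), and the start of Pzp in a region of 21482 bp (chr6:128467272-128488753). No listed region overlapped the body of Mug2 or lay within 10 kb of it, and the region nearest to its start (chr6:121924674-121927283) was 29533 bp away. The list rests on uniquely aligned reads, and the bases before the Mug2 start occur elsewhere without any difference (below). The part of left-out reads in the lack of a listed region at Mug2 was not tested. No region lay within 50 kb of A2m. Among genes with 5 to 20 RPKM in hypothyroid WT mice, the class of Mug2, 95.4% of 3486 had their start in a listed region. The share was 96.2% of 520 genes at 100 RPKM or more, the class of Pzp and Mug1, and 9.72% of 7874 genes under 0.1 RPKM, the class of A2m. The start of Gm10319 lay in a region of 5234 bp. Within 10 kb of the 4 genes there were 6 regions, 3 at Mug1 and 3 at Pzp, and within 50 kb there were 18. L-NCOR1ΔID mice did not enter this list, so that it says nothing of acetylation at Mug2 in the mutant.

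**Figure D4:**
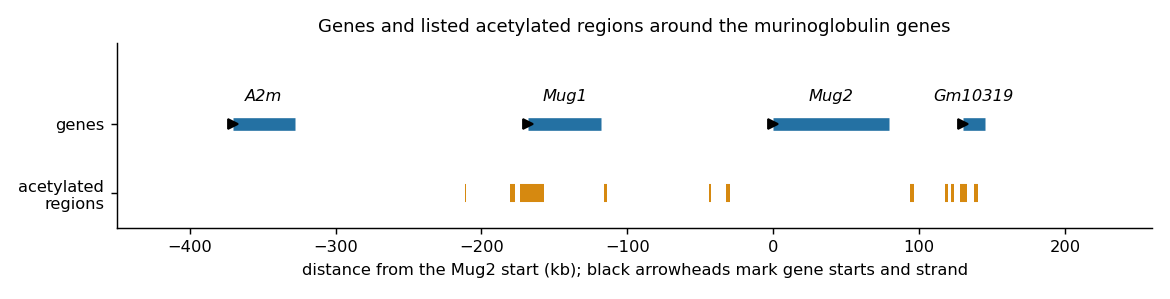
Genes (blue bars, arrowheads at the start pointing in the direction of transcription) and acetylated regions of WT mice (orange) by distance in kb from the Mug2 start. A region of 16407 bp covers the Mug1 start, and no listed region lies within 29533 bp of the Mug2 start.

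The bases before the starts of Mug1 and Mug2 are shown because the genes differ there in listed acetylation and in their response. RefSeq promoter windows from 250 bases before to 50 after the start (GRCm38) were found for Mug1, Mug2 and Pzp but not used for A2m. The windows were ended before the earliest RefSeq start of each gene and placed on mm9 by exact match, at chr6:121788309-121788513 for Mug1 and chr6:121956566-121956746 for Mug2, both on the plus strand. Capitals mark bases that differ or have no partner where the 2 overlap.
Mug1: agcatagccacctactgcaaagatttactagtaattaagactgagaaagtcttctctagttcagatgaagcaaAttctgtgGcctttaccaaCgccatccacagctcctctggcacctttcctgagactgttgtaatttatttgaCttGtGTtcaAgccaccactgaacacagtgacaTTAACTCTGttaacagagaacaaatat
Mug2: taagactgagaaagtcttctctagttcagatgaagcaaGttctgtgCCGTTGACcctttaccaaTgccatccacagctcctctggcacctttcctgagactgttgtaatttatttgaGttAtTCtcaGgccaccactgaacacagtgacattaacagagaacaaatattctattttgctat
They aligned over 161 bases with 95.0% identity, next to 9 bases without a partner in Mug1 and 7 in Mug2. The Mug2 sequence occurred a further time on chromosome 6 without any difference, at chr6:122125821-122126001 on the plus strand, 39355 bp after the start of Gm10319. That copy also lay outside the listed regions, and the next RefSeq gene after Gm10319 is Mug-ps1. Reads that match both copies equally well were left out by the study, and their part in the list was not tested. Each whole window was searched on both strands for the TR hexamer AGGTCA, for its direct repeat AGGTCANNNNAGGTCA (DR4), which contains the hexamer, and for the STAT motif TTCNNNGAA. None of these letters was found in the windows of Mug1, Mug2 or Pzp. Of 32851 RefSeq windows of this length, 16.3% held AGGTCA, 8.30% held TTCNNNGAA and 0.0152% held DR4.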

How the data were processed

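Liver RNA of 12 mice was sequenced by the authors, aligned to mm9 with STAR and quantified per RefSeq transcript with HOMER. The deposited RPKM values are per uniquely aligned reads with replicates kept apart. The methods of the study name 2 instrument models for its libraries together and do not say which was used for each RNA library. The part of the instrument in the differences was not tested. Per the labels, DESeq2 was also among the tools of the authors. It was not used here, since RPKM values are not counts. The deposited list of acetylated regions was called by the authors with HOMER on pooled marks and conditions, and positions are printed from 1.

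The first listed of 31370 transcripts was kept for each of 23813 genes, and 1 transcript without a gene name, at most 0.00079% of the RPKM of a library, was left out. Values were transformed to log2(RPKM + 0.1), and pairs of groups were compared in R 4.3.3 by limma 3.58.1, letting the prior variance follow the mean level. A gene entered a fit if 4 or more of its 8 libraries reached 0.1 RPKM, and p-values were adjusted over the genes of that fit (Benjamini-Hochberg). Log2 differences are on this scale, which understates the change of low genes. Genes were called at an adjusted p under 0.01, for T3 also at an absolute log2 difference over 1. The genes described, the lists and the rules for named genes were chosen with earlier results of these data known. Besides the 4 genes, the text names the 3 most correlated genes of each (1 of them is not reported here), called neighbours within 500 kb, up to 4 called genes per list and comparison, and a few fixed genes (Lrp1, Lrpap1, C3, Hc, Stat3, Thrsp, Dio1, Ncor1 and Alb). The fit was tested on simulated data with known changes, drawn for both groups with the means and spreads of the hypothyroid WT libraries. The spreads of the hyperthyroid and mutant libraries were not simulated. Depth per library was estimated from the value of 1 read in low genes, which sets the precision of low values. Read intervals cover counting error only. The methods of the study give 4 biological replicates for RNA, while the labels give replicate numbers only. The p-values measure the spread between these libraries.

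Positions came from GENCODE M1 (mm9), which gave 19904 of the genes, since the table used here holds none. Coding sequences were aligned with Biopython 1.88. Promoter windows were those of RefSeq (GRCm38.p6). Other steps used Python 3.11.15, numpy 2.4.6 and pandas 2.3.3, and figures were drawn with matplotlib 3.10.9. Same-numbered libraries of the groups did not deviate together (correlation of deviations -0.067 to 0.080 for T3 and -0.145 to 0.175 for L-NCOR1ΔID), so no block was used.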

Additional observations from a re-analysis of the deposited data

Results flagged for a closer look

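In 129 groups of 4 libraries, 5 had a library far from the other 3, and chance alone gives about 1 in 20 groups. None of these was a value of Pzp, Mug1, Mug2 or A2m. Dio1 was 57.7 RPKM in WT PTU replicate 3 and at most 8.98 RPKM in the other hypothyroid WT libraries. Saa3 was 43.7 RPKM and Cebpb 125 RPKM in WT T3 replicate 2, against at most 9.45 and 56.7 RPKM in the other hyperthyroid libraries. Lrp5 was 9.80 RPKM in WT PTU replicate 3, with 8.26 to 8.50 RPKM in the others. Hc was 133 RPKM in WT PTU replicate 4 and 103 to 107 RPKM in the others.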

How the results depend on the processing

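The log2 differences of Mug2 and Pzp in L-NCOR1ΔID mice moved by less than 1 within-group SD under a pseudocount of 1 or 0.01, the replicate block, another scaling, another choice of transcript or any library left out, as did those of Mug1. With scaling by the median of gene ratios the T3 differences moved to -1.06 for Mug1 and -0.82 for Pzp. Leaving out 1 library gave, with T3, -0.91 to -0.74 for Mug1, -0.13 to 0.37 for Mug2 and -0.67 to -0.54 for Pzp, and in the mutant -0.56 to -0.29 for Mug1 and -0.20 to -0.07 for Pzp. A2m gave no value under any setting since it did not pass the filter.

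The counts of called genes depended more on the setting. With a pseudocount of 1, 575 genes were higher and 319 lower with T3, against 1155 and 484. In L-NCOR1ΔID mice 100 genes were higher and 75 lower. The replicate block gave 20 and 25, an adjusted p under 0.05 gave 344 and 257, no variance trend gave 63 higher and all 12 libraries in 1 fit gave 118 lower. Leaving out 1 library gave 36 to 110 higher and 28 to 77 lower in the mutant, and 994 to 1139 higher and 383 to 485 lower with T3. Within 50 kb instead of 10 kb of the genes there were 18 acetylated regions instead of 6. The cause of these changes was not tested.

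The replicate numbers pair no samples, as same-numbered libraries correlated between -0.145 and 0.175, so that calls lost under the block are not read as weaker effects. Depth limits A2m, which had 0 to 10 reads per library, and for Mug1 and Mug2 reads that match both were left out at any depth.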
